A study of Arabidopsis thaliana with 4 samples.

Results

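The 500 regions of open chromatin with the strongest ATAC-seq signal in Arabidopsis flowers were described. They were selected on measured values. Called intervals from 4 libraries were merged into 64218 regions wherever they shared at least 1 bp, and 19546 regions were called in every library (shared regions). Within each library the shared regions were ranked by their highest fold enrichment, the ratio of tags at a summit to the local background. The 4 ranks were averaged and the 500 best places were kept, so fold, rank and the measures that go with them are descriptions of the selection, with no test of the members against other regions.

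The plants were of the Columbia-0 background, grown for 4 weeks in long days in a greenhouse, and nuclei were taken from flowers. WT plants gave 2 libraries and plants of the mbd9-3 T-DNA mutant gave 2 libraries, all of them untreated. The number of plants behind a library was not given in the sources used here, so the spread between libraries may be partly technical. The mutation is present in the whole plant and is a single allele. The lists held 44004 and 43962 intervals for WT replicates 1 and 2 and 45208 and 37609 for mbd9-3 replicates 1 and 2. Read totals are not part of such lists. The lowest background in a list, a measure of relative depth in overlapping tags, was 1.75 and 2.15 in WT and 1.72 and 1.79 in mbd9-3, so WT replicate 2 stood above the others.

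In ATAC-seq the transposase Tn5 inserts adaptors into DNA that is not covered by nucleosomes, and plant genes usually carry such an open stretch just upstream of the transcription start site (TSS). Transcription factors of the bZIP and bHLH families, among them regulators of light and hormone responses, bind the G-box, a palindrome found in many open promoters. MBD9 associates with SWR1, the complex that places the histone variant H2A.Z in nucleosomes near the TSS. Chromosome 2 of Arabidopsis carries, next to its centromere, a long insertion of mitochondrial DNA.

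The 500 regions were of different kinds, and sequences of 7 of them show the difference. Each line is 101 bases of the + strand of TAIR10 centred on a summit. The first 5 came from regions within 1 kb upstream of the nearest TSS and hold a G-box within 50 bases of the summit, with the G-box in capitals. They lie at chr4:13036582-13036682 (161 bp upstream of SLK1, a SEUSS-like transcriptional co-regulator), chr1:16801027-16801127 (756 bp upstream of ALDH3H1, an aldehyde dehydrogenase), chr2:10366973-10367073 (121 bp upstream of the protein kinase gene AT2G24360), chr3:11384109-11384209 (14 bp upstream of AFP3, of a family of regulators in abscisic acid signalling) and chr4:2464123-2464223 (23 bp upstream of CLS, cardiolipin synthase). The last 2 lines, with no capitals, are a mitochondrion-like region at chr2:3418712-3418812 and the strongest region of all at chr5:3253151-3253251.
SLK1: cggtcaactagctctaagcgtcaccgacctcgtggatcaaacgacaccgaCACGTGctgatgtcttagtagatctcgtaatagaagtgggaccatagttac
ALDH3H1: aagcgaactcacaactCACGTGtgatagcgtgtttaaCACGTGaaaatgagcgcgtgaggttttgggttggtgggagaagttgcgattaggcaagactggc
AT2G24360: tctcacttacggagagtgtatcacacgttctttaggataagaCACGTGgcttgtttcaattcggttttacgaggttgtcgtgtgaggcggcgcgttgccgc
AFP3: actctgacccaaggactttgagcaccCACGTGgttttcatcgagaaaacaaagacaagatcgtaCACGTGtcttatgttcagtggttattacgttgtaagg
CLS: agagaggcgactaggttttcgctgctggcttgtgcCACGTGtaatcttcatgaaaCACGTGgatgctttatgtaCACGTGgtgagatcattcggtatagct
AT2G07718: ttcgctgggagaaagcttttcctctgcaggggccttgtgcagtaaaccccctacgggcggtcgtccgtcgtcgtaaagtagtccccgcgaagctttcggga
AT5G10340: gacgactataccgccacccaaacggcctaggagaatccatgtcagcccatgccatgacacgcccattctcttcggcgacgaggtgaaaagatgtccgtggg

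The strongest region, chr5:3253122-3253296, lay in a coding exon of AT5G10340, a gene for an F-box protein, 79 bp past its TSS. Its fold was 86.6 and 78.0 in WT and 89.0 and 81.8 in mbd9-3, the highest value in each of the 4 libraries. F-box proteins select targets for ubiquitination. In the 200-base window around its summit 37.6% of the 31-base words (31-mers) occurred more than once in the nuclear chromosomes. The next region, in intergenic DNA of chromosome 3 far from any coding gene, reached 52.4 and 50.7 in WT and 52.0 and 52.1 in mbd9-3. There 81.2% of the 31-mers were repeated.

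**Figure D1:**
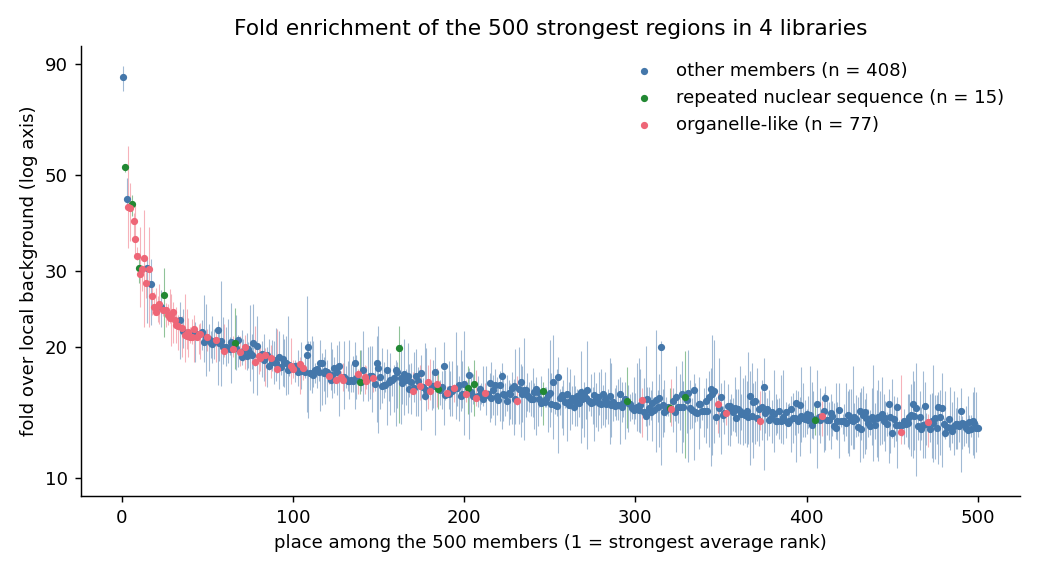
Fold over the local background (log axis) for the 500 members in order of average rank. Points are medians of 4 libraries and lines run from the lowest to the highest library. The organelle-like regions (n = 77) crowd the left end, and most of the curve lies between 10 and 20.

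The values fell steeply over the first places. Only 9 members exceeded a fold of 30 in all 4 libraries and 35 exceeded 20. The members' median fold was 16.3 and 15.7 in WT and 15.8 and 14.6 in mbd9-3, against 5.10, 5.78, 4.97 and 5.08 over all shared regions in the same order. The libraries gave close values at most members. The highest library was a median of 1.26 times the lowest (at most 1.93 times), against a median of 1.49 times over all shared regions. The members were chosen for high ranks in these same libraries, so a small spread was favoured by the choice. Between pairs of libraries the correlation (rho) was 0.548 to 0.654 within members, against 0.739 to 0.790 over all shared regions. Within members the replicate 1 libraries of the genotypes gave the highest value (0.654) and the replicate 2 libraries the lowest (0.548). The WT pair gave 0.579 and the mbd9-3 pair 0.574. Over all shared regions the replicate 1 libraries gave 0.771 and the replicate 2 libraries 0.774, between the WT pair (0.790) and the mbd9-3 pair (0.739). The choice affects this measure too. The summits of the 4 libraries lay within a median of 10 bp of each other, against 40 bp over all shared regions.

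At the threshold the regions differed little. The last 3 inside were near ADS1 (average rank 658.1), PSBQ-2 (658.2) and AT1G19110 (659.9), and the first 3 outside were near PEX22 (660.0), AXR4 (661.9) and AT1G62045 (664.1). PSBQ-2 encodes a subunit of the oxygen-evolving complex of photosystem II, and its folds were 12.5 and 15.7 in WT and 11.5 and 13.5 in mbd9-3. Its rank in single libraries ran from 279 to 1092, so the lower places are not fixed by any 1 library.

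A part of the members consisted of organelle sequence. In 77 members (15.4%) at least 50% of the 31-mers around the summit occurred in the mitochondrial or chloroplast sequence of Columbia-0, against 147 of the 19546 shared regions (0.752%). The value of 50% was set after these data were seen. Of the 77, 76 were mitochondrion-like and lay in a stretch of 250 kb, chr2:3259636-3509760, and in 66 members every 31-mer had a mitochondrial match. All 144 shared regions in this stretch were mitochondrion-like and 76 of them were members. The remaining organelle-like member, at chr3:7104345-7104566, matched the chloroplast. They held 13 of the first 20 places, 35 of the first 50, 48 of the first 100 and 69 of the first 250. Their number depended on the measure of strength, with 132 among the strongest 500 by −log10 p-value and 143 by summit pileup.

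The organelle-like members had another shape than the rest. They were narrow, with a median width of 148 bp against 332 bp for the other 423 members (called nuclear members below), and their summits agreed within a median of 4 bp. Their local background was high, at a median of 7.06 and 5.48 tags in WT and 6.54 and 5.13 in mbd9-3. The nuclear members had 2.36, 2.92, 2.37 and 2.44 tags in the same order. Their median pileup was 163, 122, 154 and 120 tags, against 53, 61, 51 and 48 tags at nuclear members. Reads of the mitochondrial genome and of its nuclear copy cannot be told apart where the sequences are identical. Per the study's methods Bowtie kept reads with a single alignment (-m 1) and organelle reads were removed, but which organelle sequences were in the alignment is not given in the sources used here. The part of organelle reads in these values was not tested.

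**Figure D2:**
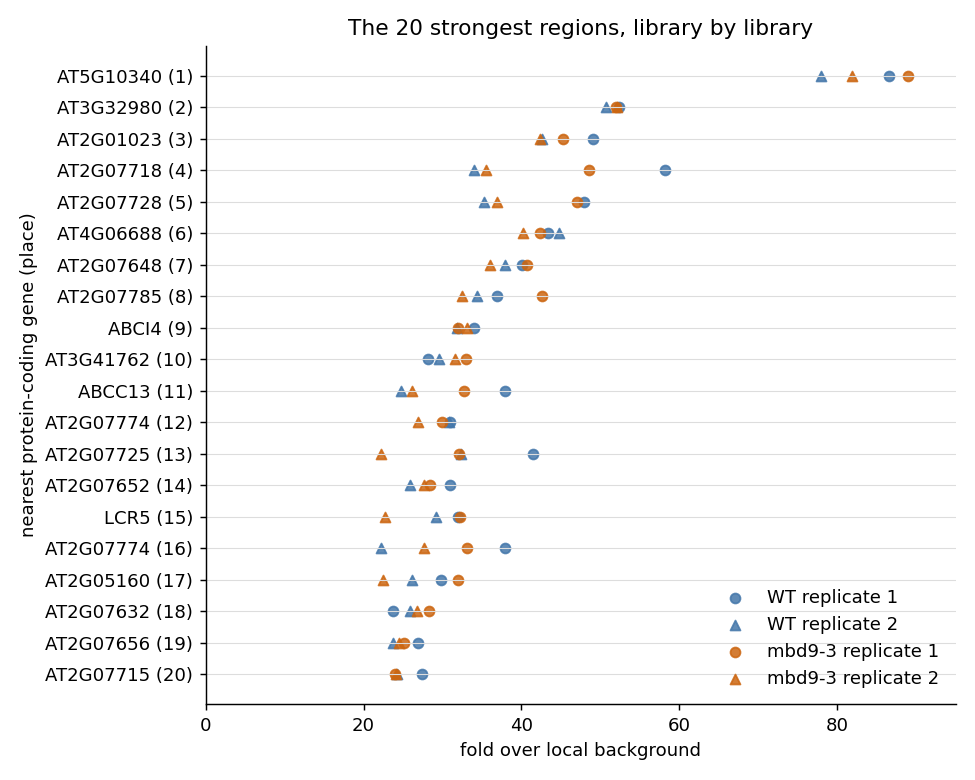
Fold over the local background in each of the 4 libraries for the 20 members with the best average rank, named by the nearest protein-coding gene with the place in parentheses. AT5G10340 stands apart from 78.0 to 89.0, and 13 of the 20 are organelle-like, all of these on chromosome 2.

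Most of the genes nearest to organelle-like members had no assigned function. The 77 members had 48 nearest genes, and 36 of these were annotated as uncharacterized or hypothetical, against 37 of 413 (8.96%) for the nuclear members. The region nearest to AT2G07718, named for cytochrome b, had a fold of 58.2 and 34.0 in WT and 48.6 and 35.5 in mbd9-3. In both genotypes replicate 1 was above replicate 2. The region nearest to the TSS of AT2G07785, an NADH dehydrogenase gene, had 36.9 and 34.3 in WT and 42.6 and 32.5 in mbd9-3. Its summit was classed as coding exon but lay 1069 bp past that TSS, beyond the end of AT2G07785. At place 33 was a coding exon of AT2G07732, a copy of the gene for the large subunit of Rubisco, in which most 31-mers matched the mitochondrion and 50% or more also the chloroplast. Another 15 members (3.00%) had at least 50% of their 31-mers repeated in the nuclear chromosomes, against 77 shared regions (0.394%). Among them 4 lay near AT3G41762 and 3 near AT5G30520, the latter in intergenic DNA over 10 kb from any coding gene's TSS.

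Annotation was not used to choose the members. A summit was given to the first class that held it, with a promoter defined as the 1 kb upstream of the TSS of any protein-coding gene. Of the 500 members 238 (47.6%, 95% Wilson interval 43.3 to 52.0) had their summit in a promoter, and 79 (15.8%) in a 5′ UTR. The shares over all shared regions were 44.98% and 17.0%, and promoters held 21.3% of all bases. Among the 423 nuclear members 208 were in promoters (49.2%), 76 in 5′ UTRs (18.0%), 68 intergenic (16.1%), 25 in coding exons (5.91%), 20 within 1 kb downstream of a gene (4.73%), 11 in genes that do not code for protein, 8 in 3′ UTRs and 7 in introns. The strongest regions were thus distributed over the gene much as shared regions in general. The downstream class was the main exception, with 4.73% (interval 3.08 to 7.19) against 9.04% over all shared regions. Intervals cover counting error only, and neighbouring regions are not independent.

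**Figure D3:**
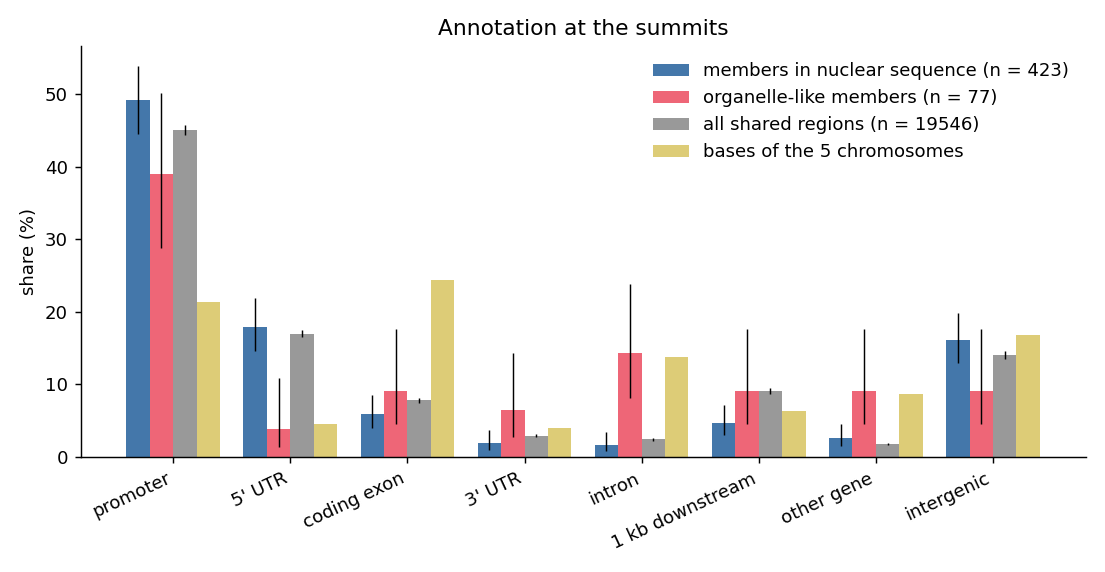
Share of summits in each annotation class for nuclear members, organelle-like members and all shared regions, with 95% Wilson intervals, beside the share of bases. Promoters hold 49.2% of nuclear members and 44.98% of all shared regions, against 21.3% of bases.

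The nuclear members lay closer to a TSS by the median and had fewer open neighbours than nuclear shared regions in general. Their median distance to the nearest TSS was 182 bp, against 386 bp over nuclear shared regions, and 52.0% were within 200 bp against 42.3%. The mean distance went the other way, at 2114 bp against 1059 bp. The share within 200 bp was not particular to the members. In successive bins of 500 nuclear shared regions, strongest first, it was 52.4% in the first, 50.8% in the second, 53.8% in the sixth and 25.3% in the last. On average 1.07 other shared regions lay within 5 kb of a nuclear member, against 1.78. Fold is a ratio to the local background, so the number of neighbours may not be independent of the choice. This was not tested. Within 1 kb of the nearest TSS 192 members were upstream and 113 downstream, and 118 were farther away. Divergent promoters, with a second TSS facing the other way, held 6.62% of nuclear members and 6.86% of nuclear shared regions.

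The sequence around the summits was searched on both strands, in windows of 100 bp on each side, for 14 motifs. The G-box, CACGTG, stood out. It occurred in 191 of the 423 nuclear members (45.2%, interval 40.5 to 49.9) and in 3044 of the other 18976 nuclear shared regions (16.0%, interval 15.5 to 16.6). Over all 500 members it was in 38.4% (interval 34.2 to 42.7), against 16.6% over all shared regions, and it was in 1 of the 77 organelle-like members. More than 1 G-box was present in 61 nuclear members, as in the sequences of ALDH3H1, AFP3 and CLS shown above. Read the other way, 5.90% of the nuclear shared regions with a G-box were members, and 1.44% of those without.

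**Figure D4:**
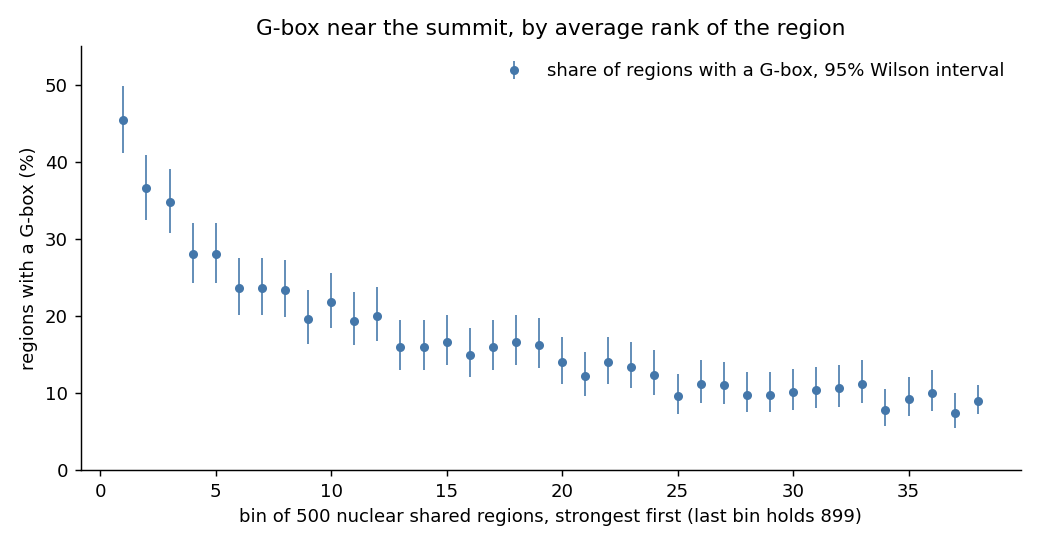
Share of regions with a G-box in successive bins of 500 nuclear shared regions, strongest first, with 95% Wilson intervals. The share is 45.4% in the first bin and 9.01% in the last.

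The share of regions with a G-box declined along the order of strength. In bins of 500 nuclear shared regions it was 45.4% in the first, 36.6% in the second, 28.0% in the fifth, 21.8% in the tenth and 9.01% in the last. The promoter share followed another course, with 49.0% in the first bin, 53.8% in the third, 56.2% in the sixth and 33.5% in the last. The members were also richer in G+C, with a median of 42.5% in nuclear members against 38.5% over nuclear shared regions. Within windows of like G+C the difference remained. From 40% up to 45% G+C the G-box was in 42.4% of 184 members and 20.6% of 5198 other regions, and from 35% up to 40% in 36.2% of 94 and 13.4% of 7694. It was likewise in 46.6% of members in promoters against 16.6% of other promoter regions, and in 54.4% of intergenic members against 17.9%.

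**Figure D5:**
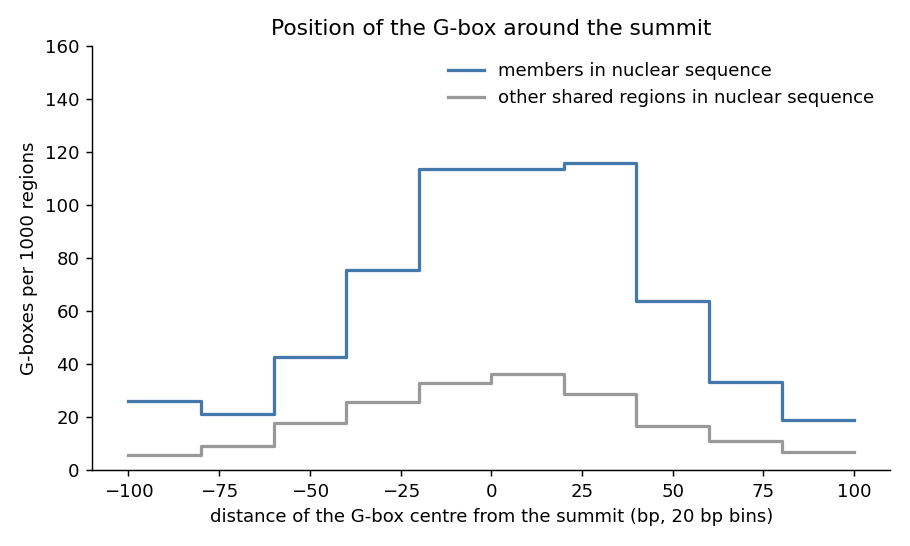
G-boxes per 1000 regions against the distance of the motif's centre from the summit, in 20 bp bins on the + strand. In nuclear members the density is between 113 and 116 from 20 bp before to 40 bp after the summit, and 18.9 to 26.0 in the outermost bins.

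The motif lay near the summit. In nuclear members with a G-box the nearest copy was a median of 23 bp from the summit and 57.6% had a copy within 25 bp, against 25 bp and 50.1% in the other regions. More than 1 copy was present in 61 of these 191 members, against 523 of the 3044 other regions with a G-box. The nearest of several copies tends to lie closer, and the comparison was not adjusted for this. The shorter core ACGT, which the G-box contains, was in 77.3% of nuclear members and 53.7% of the other nuclear shared regions. The TATA box TATAAA was rarer in nuclear members (18.4%) than in the others (24.5%), as was the telo-box AAACCCTA (1.18% and 3.66%). The members were richer in G+C, and these shares were not compared within windows of like G+C. Most of the remaining motifs differed little. The W-box TTGACC or TTGACT, bound by WRKY factors, was in 22.9% of nuclear members and 23.0% of the others, and the CArG box of MADS-domain factors in 2.13% and 2.40%. A match is a description of the window and no evidence of binding.

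The members' nearest genes covered many functions. The 423 nuclear members had 413 nearest protein-coding genes, and the 19399 nuclear shared regions had 13985. All groups were set by words in the product, and such words can also take in proteins of other function. NET1C, a kinase-interacting protein, was counted among the kinases, and AGO1 among the transporters. Transcription factors made up 23 of the 413 (5.57%) and 5.01% of the genes at nuclear shared regions. Kinases made up 26 (6.30% against 5.21%). Transporters made up 19 (4.60% against 2.85%) and F-box proteins 9 (2.18% against 1.41%). Genes of the clock and of light signalling made up 7 (1.69% against 0.343%), those of auxin 7 (1.69% against 0.694%), chromatin proteins 7 (1.69% against 0.865%) and heat shock proteins or chaperones 9 (2.18% against 1.19%). Ribosomal proteins (2 genes, 0.484% against 1.61%), pentatricopeptide repeat proteins (1 gene, 0.242% against 0.801%) and cell wall proteins (2 genes, 0.484% against 1.33%) were less frequent. So were proteins of calcium signalling (2 genes, 0.484% against 1.03%). These are counts of a few genes, and no test of enrichment was made.

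Light and clock genes were represented by GI, COL3, COL4, CRY3, PLPB, LSH1 and AT3G21320. GIGANTEA (GI), which links the circadian clock to flowering, had its member 966 bp upstream of the TSS. The fold there was 14.1 and 13.8 in WT and 13.8 and 12.5 in mbd9-3, values that overlapped. COL3, a B-box relative of CONSTANS, had a member 64 bp upstream of its TSS with 17.2 and 16.2 in WT and 16.8 and 14.8 in mbd9-3. The photosystem II antenna genes LHCB2.2 and LHCB2.3 had members 70 and 157 bp upstream. Their folds were between 13.0 and 16.2 in the 4 libraries, with a G-box near the summit of LHCB2.3 and not of LHCB2.2.

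Of the hormone groups, auxin had 7 genes, abscisic acid 1 (AFP3), cytokinin 1 (CRF3, a response factor) and ethylene and gibberellin 0 of the 413, against 0.0715% for abscisic acid, 0.0715% for cytokinin, 0.20% for ethylene and 0.107% for gibberellin at nuclear shared regions. GH3.1 and GH3.3, which join auxin to amino acids, had members 839 and 205 bp upstream of the TSS. The fold at GH3.1 was 20.01 and 21.2 in WT and 26.4 and 18.5 in mbd9-3, and at GH3.3 17.0 and 15.8 in WT and 17.9 and 15.9 in mbd9-3. The auxin receptor gene AFB2 and the response factor gene ARF8 had members at the TSS, 5 bp past it and 38 bp before it. Over the 7 auxin members, 2 lay within 200 bp of the TSS. At AFP3 the fold was 18.7 and 16.7 in WT and 18.7 and 17.5 in mbd9-3.

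Of the 7 members at chromatin genes 6 lay within 200 bp of the TSS, as did 6 of the 9 at heat shock and chaperone genes, against 52.0% of all nuclear members. HIRA, a chaperone of histone H3, counts in both groups. The histone deacetylase gene HDA9 (31 bp past the TSS) had folds of 13.3 and 17.8 in WT and 11.9 and 14.3 in mbd9-3, which overlapped. BIP1, a chaperone of the endoplasmic reticulum, had a member 23 bp past its TSS with folds of 18.9 and 17.8 in WT and 14.4 and 20.6 in mbd9-3. Among 3 members at genes with histone in their product, that of HTA7, a histone H2A gene, lay 27 bp past the TSS with folds of 13.2 and 14.7 in WT and 15.8 and 11.4 in mbd9-3.

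Genes of the fixed lists were looked up by name. A gene was counted with a shared region where a shared region touched it or the 1 kb upstream, and with a member also where it was the nearest gene to a member. By this rule 545 of the 27444 protein-coding genes (1.99%) had a member. Of 23 genes for flowering and floral organ identity 1 had a member, and 14 had a shared region (60.9%, against 55.6% of all coding genes). The member was 3300 bp upstream of SOC1, a MADS-domain gene that promotes flowering (annotated as AGL20), just downstream of another gene, and SOC1 was not among the 14. Its fold was 17.8 and 14.5 in WT and 13.5 and 11.4 in mbd9-3, with both WT ranks stronger. The same held for 17.0% of all shared regions, and this member was not called different between the genotypes. The median of the best place of the 14 genes was at percentile 62.8 of the order of shared regions, against 59.5 over all coding genes with a shared region. Of 14 clock and light genes 1 had a member (GI) and 13 had a shared region. Their median percentile was 89.2, with LHY at 96.6, HY5 at 94.8 and PRR9 at 94.5. No member was found at 9 meristem genes or 10 polyubiquitin and actin genes. All of these lists are too short for their counts to be read against 1.99%.

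The marker genes of the tissue gave a mixed picture. Shared regions were present at 6 of 8 flower markers and absent at the petal and stamen genes AP3 and PI. They were present at 4 of 5 seed markers, 2 of 5 root markers and 1 of the 3 pollen markers found in the annotation, and no marker had a member. Of the genes for SWR1 and H2A.Z, 7 of the 10 found had a shared region and none had a member. The best placed was HTA8, an H2A.Z gene, at place 535, just outside the selection, and MBD9 itself had no shared region.

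Members in pairs were few among nuclear sequence. There were 7 genes with more than 1 nuclear member nearest to them. At EPF2, a peptide that restrains stomatal density, a member 680 bp past the TSS was classed as coding exon. Its folds were 20.9 and 14.9 in WT and 19.8 and 13.96 in mbd9-3, and another member lay 5490 bp downstream of the TSS. AGL44, a MADS-domain gene of the root response to nitrate, had a member 315 bp upstream and another 7402 bp past its TSS in a pseudogene. A tRNA gene was overlapped by 1 member (0.20%, against 0.153% of all shared regions) and a miRNA gene by 1 (0.20%, against 0.0307%). The tRNA gene was AT5G35605, with folds of 17.1 and 16.2 in WT and 13.98 and 14.7 in mbd9-3. The region over the miRNA gene AT2G03855, chr2:2866-2961, lay at the start of the chromosome, and there 73.5% of the 31-mers were repeated. The widest cover was at OXS2, a zinc finger transcription factor of the oxidative stress response, with 742 and 757 bp called in WT and 738 and 758 bp in mbd9-3. FIB, a plastid fibrillin (707 and 749 bp in WT, 610 and 713 bp in mbd9-3), and AT1G19490 (626 and 723 bp in WT, 645 and 694 bp in mbd9-3) followed.

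Strength in a library that had no part in the choice was examined next. When the strongest 500 were chosen from 3 libraries, every region was called in the library left out, at a median percentile of 99.2 to 99.4 among all intervals of that library. At least 499 of the 500 lay in its top 10%. When they were chosen from the WT pair, all 500 were called in both mbd9-3 libraries, at median percentiles of 99.4 and 99.2, with 499 and 495 in the top 10%. The choice from the mbd9-3 pair gave 99.3 in both WT libraries, with 500 and 499. With organelle-like regions left out, the WT choice had 499 of 500 called in each mbd9-3 library, with 497 and 494 in the top 10%. The WT and the mbd9-3 choice shared 376 regions (75.2% of each). Among the regions that were called, the lowest was at percentile 84.6, so each called region stood in the upper part of the other genotype's lists.

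No member was called different between the genotypes. In a limma test on normal scores of the ranks, with Benjamini-Hochberg adjustment over the 19546 shared regions, 0% of all regions and 0 of the 500 members were called (smallest adjusted p = 0.905). At an unadjusted p under 0.05 there were 1046 regions (5.35%) and 1 member. Both WT ranks were stronger than both mbd9-3 ranks at 75 members (15.0%), against 17.0% of all shared regions, and both mbd9-3 ranks were stronger at 87 members (17.4%), against 17.2%. Among the 77 organelle-like members, 76 of which share a single stretch, the numbers were 7 and 24. Because the members were chosen for high ranks in all 4 libraries, large differences between libraries were unlikely to enter.

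The members that differed most between genotypes were named by the difference of mean normal scores, mbd9-3 minus WT. The region near LOG9, of a family that activates cytokinin, had folds of 12.01 and 13.7 in WT and 18.0 and 20.8 in mbd9-3, a difference of 0.91 in normal score (limma, unadjusted p = 0.0416, adjusted p = 0.905). The regions near AT2G13980 (0.73) and AT3G29255 (0.62) followed, all 3 of them intergenic. In the other direction AT1G69800 had 16.3 and 21.9 in WT and 13.98 and 11.5 in mbd9-3, a difference of -0.68. AT5G36001 (-0.66) and DDB2, a protein of ultraviolet damage repair (-0.62), followed. At each of these 6 members the genotypes did not overlap, and none was called after adjustment.

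The median fold of the members relative to all shared regions was 3.19 and 2.73 in WT and 3.19 and 2.88 in mbd9-3, a difference of means of 0.076. The bases called at members came to 135.8 and 146.2 kb in WT and 135.7 and 142.7 kb in mbd9-3, a difference of means of -1.84 kb. The values of the genotypes overlapped in both measures. With 2 libraries a group an exact two-sided permutation test cannot go below 0.333, so these values neither show a difference nor show that the genotypes are alike. Both differences turned their direction when WT replicate 2 or mbd9-3 replicate 1 was left out. The relative strength was then -0.158 or -0.075, and the called bases 3.33 or 1.66 kb.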

How the data were processed

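Adaptors were trimmed by the authors with Trim Galore and reads were aligned to TAIR10 (Bowtie per the methods, Bowtie2 per the processing notes), keeping reads with a single alignment (-m 1 per the methods), with organelle reads removed and duplicates removed with SAMtools. The peak caller of the ATAC-seq lists and any shift for Tn5 are not given in the sources used here. The lists deposited by the authors give, for each interval of a single library, a fold enrichment (ratio), −log10 p-value, −log10 q-value and a score. No control was used and replicates were not pooled. Fold was taken as (pileup + 1)/(background + 1) and p as a Poisson upper tail, which gave a whole pileup within 0.0001 for 99.88% to 99.95% of rows. Such lists share no scale, so ranks within a library were used. Depth may affect the number and width of intervals, which was not tested. Here the number did not follow the lowest background. WT replicate 2 had the highest background (2.15) with 43962 intervals, and mbd9-3 replicate 1 the lowest (1.72) with 45208.

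Annotation and sequence were those of RefSeq TAIR10.1 (nuclear chromosome lengths equal to TAIR10), with positions counted from 1. Summits were assigned in the order promoter, 5′ UTR, coding exon, 3′ UTR, intron, 1 kb downstream, other gene, intergenic. Nearest genes are those of the nearest protein-coding TSS. limma 3.58.1 in R 4.3.3 was run on normal scores of ranks and tested on simulated data of 19546 regions, where changes of 1, 2 and 3 on the log2 scale in 200 regions were called in 21.5%, 98.0% and 97.5%. The simulation gave every region the same spread, set from the median of the real regions. Real regions may differ in spread, so these rates may overstate what could be detected in the data. Replicate numbers are shared by the genotypes but only 2 pairs exist, so they were not treated as pairs in the main tests. Whether a shared number marks libraries made together was not tested. Python 3.11.15 with scipy 1.17.1 served for the rest. The members, gene lists, motifs and alternatives were chosen with earlier results of these data known. Named regions were the 20 strongest, those at genes of the fixed lists, those at the threshold, the largest genotype differences, the widest, genes with several members, and those over tRNA or miRNA genes. Other genes were named as examples of their group after their values were seen.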

Additional observations from a re-analysis of the deposited data

How the results depend on the processing

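Ranking by summit pileup in place of fold kept 325 of the 500 members, 143 of the new set being organelle-like, and ranking by −log10 p-value kept 387, with 132 organelle-like. With the organelle-like regions left out before ranking, 423 members were kept with fold and 304 with pileup. The share with a G-box then rose to 45.4% and 49.4% (45.2% for the nuclear members alone), the share of transcription factor genes was 6.33% with fold and 8.57% with pileup (4.99% in the members, and 7.33% with pileup and all regions), and the mean held-out percentile was 99.1 against 99.3. Promoters of 500 bp or 2000 bp held 35.6% or 58.8% of the members, and 10.995% or 39.3% of all bases. The settings without organelle-like regions, and the G-box and gene-function shares under any setting, were added after seeing the data. Leaving out each library in turn kept 460 to 468 members, with 46.6% to 48.2% in promoters and 36.4% to 39.2% with a G-box. The relative strength (mbd9-3 minus WT) then ran from -0.158 to 0.309 and the called bases from -7.01 to 3.33 kb. No limma setting called any region: the replicate block gave 0 calls and 1362 regions at an unadjusted p under 0.05 (6.97%), and the other settings 4.96% to 7.77%. Lists hold no reads below the calling threshold, so weak signal is not seen here.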

Other observations

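Among the 2080 words of 6 bases, counted on both strands after the values above were seen, CACGTG showed the largest excess in nuclear members, at 45.2% against 16.0% of the other nuclear shared regions. The next words, ACACGT (44.9% and 18.5%) and ACGTGG (41.4% and 16.6%), overlap it. The 101 other words made of the same letters were in a median of 4.26% of nuclear members and 3.37% of the others, with a largest difference of 7.60 percentage points. The words lowest in members against the others were rich in A and T, such as AAAATA (22.5% and 35.2%).

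The members were spread over the chromosomes once the organelle-like stretch was set apart. Chromosomes 1 to 5 held 96, 81, 85, 81 and 80 nuclear members. The nuclear members had a median of 24 genes within 50 kb on each side, against 27 for nuclear shared regions, and 11 of them lay over 10 kb from the nearest TSS of a protein-coding gene.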
